A study of Homo sapiens with 13 samples.

Results

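The histone genes read from poly(A)-selected RNA of DLD-1 cells, a human colorectal adenocarcinoma line, are described here in 2 knockdown comparisons. Their rows were chosen by symbol: 73 rows starting with HIST1, HIST2, HIST3 or HIST4 stand for the canonical, clustered genes, and 21 rows starting with H1F, H2AF, H2BF or H3F for the replication-independent variants. Together these are 94 of the 23886 symbols in each of the authors' deposited tables. Chosen this way, the variant rows include H1FX-AS1, an antisense RNA, H3F3AP4, a pseudogene, and H2BFXP, which is not in GENCODE release 29. The canonical rows include pseudogenes as well. The label rests on the library protocol, since tail length was not measured.

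The siSOX9 cells had received an siRNA against the transcription factor SOX9 (4 libraries), and they were compared with siCtrl cells given a control siRNA (3 libraries). Both arms mix experiment 1 (3 siSOX9 and 2 siCtrl libraries) and experiment 2 (1 siSOX9 and 1 siCtrl library). The siY14 cells had received siRNA No9 or No10 against Y14, a protein of the exon junction complex (4 libraries pooled), and were compared with the siCtrl cells of experiment 3 (2 libraries). All cells were parental DLD-1 cells given 50 nM of siRNA and collected 72 h later, so each reading is of a transient knockdown in a single line. The labels name replicates but not separate cultures, so p-values measure only the spread between these libraries.

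Canonical histone genes supply the histones that package newly copied DNA. Most of their mRNA lacks a poly(A) tail: it ends just after a short stem-loop, which is bound by SLBP and cut by a complex holding the U7 snRNP. Some canonical genes can also be read past the stem-loop to a downstream polyadenylation signal, and only such tailed molecules are kept by poly(A) selection. Variant histones come from solitary genes, most with introns and ordinary poly(A) tails, and are made throughout the cell cycle. Linker histone H1 binds the DNA between nucleosomes, and H2A, H2B, H3 and H4 form the nucleosome core.

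The stem-loop is the element whose cleavage makes a tailless mRNA, so it is shown for called genes that hold it. GENCODE release 29 transcripts (GRCh38) were searched on the transcript strand for the histone stem-loop, with 6 stem bases on each side of a 4-base loop and any base allowed at 3 set positions. It stood in 29 of 88 histone genes and in 2 of 19581 other genes (0.0102%), judged on the longest coding transcript. Of the 7 canonical rows called higher after SOX9 knockdown (below), these 5 hold it. Capitals mark the loop, and letters are given as DNA.
HIST1H3H: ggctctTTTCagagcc
HIST1H2AC: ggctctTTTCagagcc
HIST2H2BE: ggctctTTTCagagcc
HIST1H2BF: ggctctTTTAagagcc
HIST2H2BC: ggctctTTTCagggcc

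These elements lie at chr6:27810516-27810531 on the plus strand (HIST1H3H), chr6:26124669-26124684 on the plus strand (HIST1H2AC) and chr1:149886188-149886203 on the minus strand (HIST2H2BE). HIST1H2BF has its element at chr6:26199968-26199983 on the plus strand, and HIST2H2BC at chr1:149850302-149850317 on the minus strand. In each of the 5 an annotated transcript runs on past the stem-loop, by 769 bases in HIST1H3H, 1729 bases in HIST2H2BE and 732 bases in HIST1H2BF. HIST1H2AC runs on by up to 1128 bases. HIST2H2BC, annotated as a transcribed pseudogene, runs on by up to 5804 bases. The annotated transcripts of HIST1H2BK (381 bases) and HIST1H1C (642 bases) hold no such motif in these letters. Over all canonical rows, 23 had an annotated transcript that ran on by at least 100 bases, 9 ended nearer the stem-loop and 41 showed no motif. Many of the 41, HIST1H2BK and HIST1H1C among them, are annotated as little more than the coding sequence. A stem-loop past that sequence could not be found in them, so no motif does not mean no stem-loop.

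The promoters of the 3 marker rows, HIST1H2BK, HIST2H2BE and HIST1H3H, are shown because these rows are among those that rose after SOX9 knockdown. Each line gives the 110 bases before the transcription start from RefSeq (GRCh38.p14), with the octamer ATTTGCAT, the TATA box TATAAA and the CCAAT box in capitals.
HIST1H2BK: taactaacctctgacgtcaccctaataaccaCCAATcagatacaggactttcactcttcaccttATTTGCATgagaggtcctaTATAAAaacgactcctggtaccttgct
HIST2H2BE: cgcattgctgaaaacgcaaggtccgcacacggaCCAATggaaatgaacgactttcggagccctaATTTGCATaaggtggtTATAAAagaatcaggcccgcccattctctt
HIST1H3H: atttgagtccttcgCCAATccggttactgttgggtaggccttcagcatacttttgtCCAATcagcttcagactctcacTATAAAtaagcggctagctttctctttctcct

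HIST1H2BK lies at chr6:27146859-27146968 on the minus strand, HIST2H2BE at chr1:149886683-149886792 on the minus strand and HIST1H3H at chr6:27809941-27810050 on the plus strand. Both H2B promoters carry the 3 elements in the same order, and the H3 promoter carries a pair of CCAAT boxes and a TATA box. The motifs were searched on both strands in the 250 bases before the start, and none overlap in the lines above. RefSeq promoters were matched for 77 of the 94 rows. The octamer, the site read by POU2F1, was in 14 of 18 canonical H2B promoters (77.8%) and 11 of 14 canonical H2A promoters (78.6%), against 454 of 27305 promoters of all genes (1.66%). H2A and H2B genes that start head to head share part of these 250 bases. A single octamer can therefore count for both, and the H2A and H2B shares are not separate observations. Canonical H3, H4 and H1 promoters held the octamer in 1 of 10, 0 of 13 and 0 of 6 cases. TATAAA was in 40 of 61 canonical promoters (65.6%), against 11.1% of all promoters. CCAAT was in 51 of 61 canonical promoters (83.6%), against 33.04% of all. A match is a description of the letters, not of binding.

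Values are normalised read counts: reads divided by a size factor for each library. The tables hold means per arm, and whole reads per library were recovered from these means for 24 of 32 histone rows with an overall mean of at least 10 in the siSOX9 table and for 26 of 33 in the siY14 table. Recovered libraries carry no name and are lettered from the deepest. They held about 24.9 to 185 M reads in the siSOX9 comparison and 45.7 to 72.8 M in the siY14 comparison. SOX9 itself averaged 9067 in siSOX9 cells and 24468 in siCtrl cells in the authors' deposited table (log2 ratio -1.43, authors' adjusted p = 1.40e-04). Y14 is encoded by RBM8A, whose mean is given as 0 in each table, so that knockdown could not be checked. All 6 epithelial markers were read, EPCAM, KRT8, KRT18, CDH1, CDX2 and VIL1, and their summed means were 283900 in siSOX9 cells and 324704 in siCtrl cells, and 298903 in siY14 cells and 407635 in the siCtrl cells of experiment 3. VIL1 was called lower in both comparisons in the authors' deposited table, and CDH1 in siY14 cells. Of the immune markers, PTPRC and CD3E stayed below an arm mean of 1 in both tables, and CD68 averaged 82.5 in siSOX9 cells and 70.2 in siCtrl cells. The 5 fibroblast and endothelial markers summed to 181 in siSOX9 cells and 176 in siCtrl cells, and to 86.5 in siY14 cells and 144 in the siCtrl cells of experiment 3. In the authors' deposited table, COL1A1 (82.6 in siSOX9 cells, 34.1 in siCtrl cells) and COL3A1 (11.9 in siSOX9 cells, 0.647 in siCtrl cells) were called higher and PDGFRB (55.8 in siSOX9 cells, 103 in siCtrl cells) lower. The part of these markers in the histone results was not tested.

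After SOX9 knockdown, canonical histone RNA in the poly(A)-selected libraries was higher in the HIST1 and HIST2 clusters, with the largest ratio in HIST1H3H. All 22 canonical rows with an overall mean of at least 10 had a log2 ratio above 0, against 52.1% of 13649 genes. Their median log2 ratio was 1.24, from 0.18 (HIST1H2AM) to 2.94 (HIST1H3H), beside 0.01 over all those genes. Some rows are uncertain as to copy. Of the 50-base windows of their longest annotated transcript, 86.3% (HIST1H2AM), 100% (HIST1H3D) and 30.5% (HIST2H2AC) also occur in another gene. By the adjusted p of the authors' deposited table, 7 rose and 0 fell, against 1.58% of genes called higher and 3.11% called lower. At least 2-fold higher were 15 of the 22, against 1.71% of genes. The overall mean includes the siSOX9 libraries (4 of 7), so a row high in siSOX9 can pass the mean of 10 through that arm. HIST1H2BF, HIST1H2BH, HIST1H3B, HIST1H3D and HIST1H4H did so, with siCtrl means of 6.32, 5.58, 8.24, 6.92 and 8.62. The genes set beside them passed the same filter. Among the 21 rows with recovered reads, 16 had every siSOX9 library above every siCtrl library, where 14.3% of recovered genes did.

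**Figure D1:**
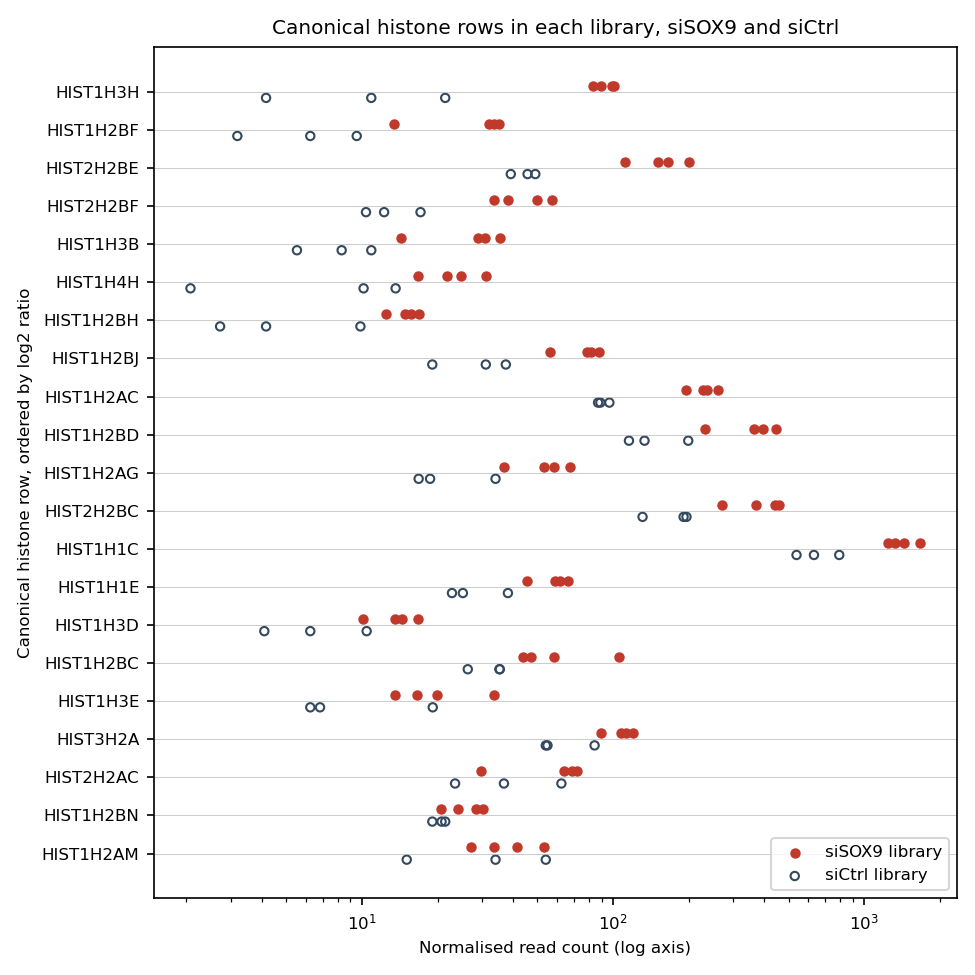
Normalised read count (log axis) of the 21 canonical rows with recovered reads, 1 row per gene, ordered by log2 ratio; filled points are the 4 siSOX9 libraries and open points, drawn just under them, the 3 siCtrl libraries. In 16 rows the filled points lie wholly to the right of the open ones, and HIST1H3H at the top has 83.3 to 101 in siSOX9 against 4.15 to 21.5 in siCtrl.

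HIST1H3H, which encodes canonical H3, changed most. It had 83.3, 101, 89.3 and 99.5 normalised counts in the siSOX9 libraries, against 21.5, 10.9 and 4.15 in the siCtrl libraries. Every siSOX9 library was far above the highest siCtrl library, and the siCtrl libraries themselves were widely spread. The means were 93.3 ± 8.51 (SD, n = 4) in siSOX9 cells and 12.2 ± 8.73 (SD, n = 3) in siCtrl cells. The authors' deposited table gave a 7.67-fold ratio (adjusted p = 3.67e-08), and limma-voom on recovered reads gave a log2 change of 2.65 (SE 0.37, adjusted p = 8.92e-04). Without siCtrl library a, the highest siCtrl value, the limma-voom log2 change was 3.52 (SE 0.46, adjusted p = 0.00110).

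The H2B rows followed, with 10 of 20 past the mean of 10, a median log2 ratio of 1.40 and 4 called higher in the authors' deposited table. HIST1H2BK, an H2B gene of the chromosome 6 cluster, averaged 3253 in siSOX9 cells and 1193 in siCtrl cells in the authors' deposited table (2.73-fold, adjusted p = 1.64e-08). Its siSOX9 reads could not be split by library, so no SD is given, and 74.1% of the 50-base windows of its annotated transcript also occur in another gene, most often H2BFS. Its value is therefore uncertain as to copy.

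HIST2H2BE, an H2B gene of the smaller cluster on chromosome 1, had 112, 151, 165 and 201 in the siSOX9 libraries, against 39.2, 49.0 and 45.7 in the siCtrl libraries. The groups were far apart, and the siCtrl libraries lay close together. The means were 157 ± 37.0 (SD, n = 4) in siSOX9 cells and 44.6 ± 5.02 (SD, n = 3) in siCtrl cells, a 3.52-fold ratio in the authors' deposited table (adjusted p = 0.00179). HIST1H2BF had 13.4, 32.1, 33.7 and 35.2 in the siSOX9 libraries and 3.19, 9.53 and 6.23 in the siCtrl libraries (4.53-fold, adjusted p = 0.0249 in the authors' deposited table). The groups did not overlap, but the deepest siSOX9 library was low, and limma-voom gave an adjusted p of 0.264 without siCtrl library a, and 0.0518 to 0.0558 without siCtrl library c or siSOX9 library c or d. HIST2H2BC had 272, 457, 440 and 371 in the siSOX9 libraries and 131, 196 and 191 in the siCtrl libraries (2.23-fold, adjusted p = 0.0380 in the authors' deposited table); limma-voom without siCtrl library a gave an adjusted p of 0.0947. Without the deepest library of both arms, which deviated together, the limma-voom adjusted p was 0.00202 for HIST1H2BF (log2 change 1.96) and 3.70e-08 for HIST2H2BC (log2 change 1.13).

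HIST1H2AC was the single H2A row called in the authors' deposited table, of 5 past the mean of 10. It had 227, 195, 261 and 236 in the siSOX9 libraries, against 89.0, 96.7 and 87.2 in the siCtrl libraries. The groups were well apart, with little spread among the siCtrl libraries. The means were 230 ± 27.3 (SD, n = 4) in siSOX9 cells and 91.0 ± 5.04 (SD, n = 3) in siCtrl cells, a 2.53-fold ratio (adjusted p = 8.12e-06 in the authors' deposited table).

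HIST1H1C, a linker histone gene expressed in many tissues, had 1677, 1249, 1333 and 1442 in the siSOX9 libraries, against 796, 538 and 631 in the siCtrl libraries. Its groups did not overlap, and the deepest library was the highest of its arm in both. The means were 1425 ± 185 (SD, n = 4) in siSOX9 cells and 655 ± 131 (SD, n = 3) in siCtrl cells, a 2.18-fold ratio (adjusted p = 1.83e-04 in the authors' deposited table). HIST1H1E, another linker gene, had a log2 ratio of 1.02 in that table, with an authors' adjusted p of 0.198.

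Among H3 rows, 4 passed the mean of 10, and besides HIST1H3H none was called in the authors' deposited table; their log2 ratios were 0.96 (HIST1H3E), 0.99 (HIST1H3D) and 1.73 (HIST1H3B). Just 1 H4 row passed the mean of 10. HIST1H4H had 16.8, 24.7, 21.9 and 31.1 in the siSOX9 libraries and 10.2, 13.6 and 2.08 in the siCtrl libraries, with an authors' adjusted p of 0.617 in the deposited table. Its libraries did not overlap, although these counts are low.

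Limma-voom on the recovered reads called 14 of 21 canonical rows higher and 0 lower, against 10.2% of 8671 recovered genes higher and 13.4% lower. Beyond 6 rows that the authors' deposited table also called, these were HIST1H1E, HIST1H2AG, HIST1H2BD, HIST1H2BH, HIST1H2BJ, HIST1H3B, HIST2H2BF and HIST3H2A. The count was 7 without siCtrl library a, where 4.71% of all recovered genes were called higher. It was 9 without siCtrl library c or siSOX9 library d, where 7.32% and 7.16% of genes were called higher, so calls were fewer over all genes too. The deepest libraries of both arms deviated from their arm means together (below), and with a term that sets these apart limma-voom called 17 canonical rows higher and 0 lower, against 24.9% and 25.7% of genes. HIST1H2BD, an H2B gene of the chromosome 6 cluster, had 232, 366, 446 and 396 in the siSOX9 libraries and 116, 133 and 199 in the siCtrl libraries. Its groups did not overlap, and limma-voom gave a log2 change of 1.24 (SE 0.28, adjusted p = 0.0104), where the authors' deposited table gave an adjusted p of 0.125; without siCtrl library a the limma-voom adjusted p was 0.111, and without the deepest library of both arms it was 7.53e-09. The 5 rows whose libraries overlapped were HIST1H2AM, HIST1H2BN, HIST2H2AC, HIST1H3D and HIST1H3E.

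Below the mean of 10, 31 canonical rows had reads. Of these, 28 had a log2 ratio above 0 and 3 below, and their summed means were 156 in siSOX9 cells and 87.7 in siCtrl cells, with 0 called in the authors' deposited table. In the siY14 comparison, 23 of 30 such rows were above 0 and 7 below, with summed means of 131 in siY14 cells and 89.1 in siCtrl cells. A row with reads in the knockdown arm alone counts as above 0, and that arm holds more libraries in both comparisons. The share above 0 over all genes below the mean of 10 was not counted, so no lean can be read from these counts. In the siSOX9 comparison, the rows on either side of that limit were HIST1H3D (overall mean 10.8, log2 ratio 0.99) and HIST1H4E (overall mean 9.42, log2 ratio 0.46). A further 20 canonical rows were listed at 0. They include copies that cannot be told apart by short reads: HIST2H2AA3, HIST2H3A, HIST2H3C, HIST2H4A and HIST2H4B have every 50-base window of their longest transcript in another gene. Others at 0, such as HIST1H3C, HIST1H4F and HIST3H3, share no window with another gene, and why they are at 0 was not tested. The change of any row listed at 0 is unknown.

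By cluster, the HIST1 genes on chromosome 6 had a median log2 ratio of 1.27 over 17 rows, with 5 called higher. The HIST2 genes on chromosome 1 had a median of 1.46 over 4 rows, with 2 called higher. Over all genes 1.58% were called higher. HIST3H2A, alone in its cluster past the mean of 10, had a log2 ratio of 0.74 (authors' adjusted p = 0.195). Canonical rows with a transcript annotated past the stem-loop had a median of 1.38 over 12 rows, and rows with no annotated stem-loop had 1.02 over 9 rows. Most of the second kind are annotated as little more than the coding sequence, so this split is a description.

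H2A and H2B genes often sit head to head and share a promoter region, and GENCODE annotates 13 pairs of histone starts within 500 bases on opposite strands. In 3 pairs both rows passed the mean of 10 in the siSOX9 table. All 22 canonical rows past that mean had a log2 ratio above 0, so a shared direction in these pairs says nothing about pairing. HIST1H2AC and HIST1H2BC, 219 bases apart, had 1.34 and 0.98. HIST1H2AG and HIST1H2BJ, 292 bases apart, had 1.21 and 1.38. HIST2H2AC and HIST2H2BE, 323 bases apart, had 0.52 and 1.82, so the partners were not equal there. HIST1H2AH, the partner of HIST1H2BK at 331 bases, had a log2 ratio of 1.11 at an overall mean of 8.75. How the authors' counting treated strand is not stated in the labels, so reads of overlapping antisense transcripts could not be told apart.

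Among the 21 variant rows, 10 passed the mean of 10 in the siSOX9 table, with a median log2 ratio of 0.14, from -0.42 (H2AFY2) to 0.80 (H1FX-AS1, the antisense partner of H1FX). The authors' deposited table (DESeq p-values) called 0 of the 10, against 1.58% of genes higher and 3.11% lower, and 1 of 10 had an unadjusted p below 0.05, against 13.6% of genes. H2AFZ, the H2A.Z gene, averaged 26494 in siSOX9 cells and 24584 in siCtrl cells in the authors' deposited table. H3F3B, an H3.3 gene, averaged 14327 in siSOX9 cells and 13569 in siCtrl cells there. Both ratios were close to 1, with an authors' adjusted p of 1 for each.

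H2AFY (macroH2A1), H2AFV (an H2A.Z paralog) and H1FX had log2 ratios of 0.18, 0.19 and 0.07 in the authors' deposited table. H1F0, the linker histone of resting and differentiated cells, averaged 10549 in siSOX9 cells and 8155 in siCtrl cells there (log2 ratio 0.37, adjusted p = 0.789). H2AFX, the variant phosphorylated at DNA breaks, had 0.45, with an adjusted p of 1; it is the 1 variant row whose annotated transcripts hold the stem-loop, and they run on past it by up to 1044 bases. H2AFY2, which encodes macroH2A2, had 1056, 1139, 1097 and 1150 in the siSOX9 libraries, against 1440, 1542 and 1474 in the siCtrl libraries. All siSOX9 libraries were below all siCtrl libraries, where 16.7% of recovered genes were. Limma-voom gave a log2 change of -0.43 (SE 0.06, adjusted p = 7.29e-04), and the authors' deposited table an adjusted p of 0.260, so the call depends on the test. Just 3 variant rows had recovered reads in this comparison.

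**Figure D2:**
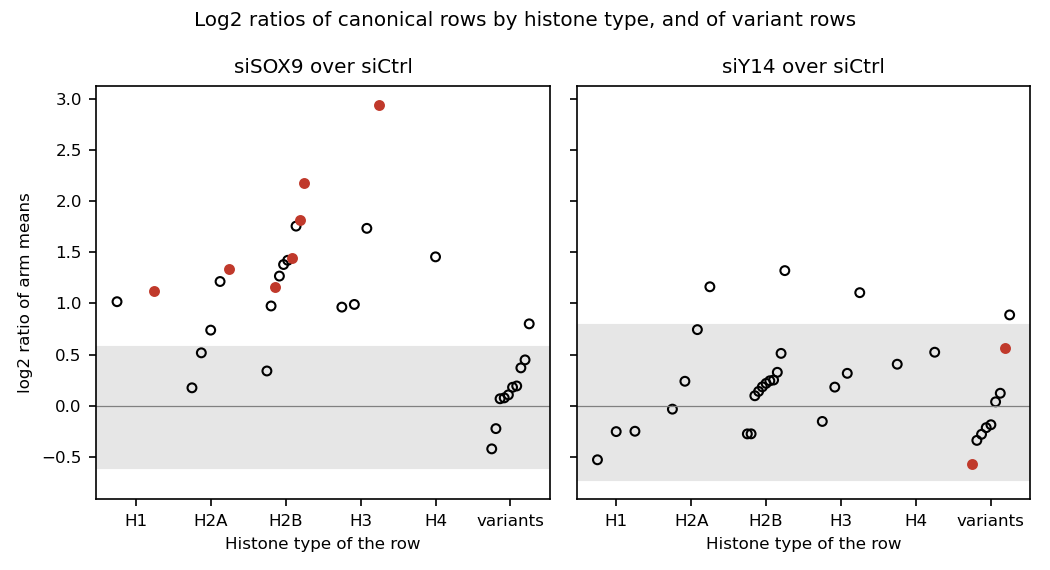
Log2 ratio of the arm means for each histone row with an overall mean of at least 10, by histone type for canonical rows and for variants; left panel siSOX9 over siCtrl, right panel siY14 over siCtrl, filled points have an authors' adjusted p below 0.05 and the grey band holds the middle of all genes from the 5th to the 95th percentile. All canonical points lie above 0 in the left panel, with a median of 1.24, while the right panel scatters around 0 with a median of 0.23.

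In siY14 cells the canonical rows lay on both sides of 0. Of 24 rows past the mean of 10, 17 had a log2 ratio above 0 and 7 below, against 49.9% of genes above 0, with a median of 0.23, beside 0.00 over all 13444 genes. The overall mean includes the siY14 libraries, so a row high in siY14 can pass through that arm. HIST1H2AM, HIST1H2BF and HIST1H2BO did so, with siCtrl means of 8.75, 8.68 and 9.72. The genes set beside the 24 passed the same filter. The authors' deposited table called 0 of the 24 (DESeq p-values), against 4.99% of genes called higher and 7.01% called lower, and 1 of 24 had an unadjusted p below 0.05, against 29.2% of genes. Limma-voom called 0 higher and 1 lower, against 28.3% of 7856 recovered genes called in either direction. The 1 row was HIST1H1C, with 1248, 1160, 1263 and 1148 in the siY14 libraries against 1410 and 1450 in the siCtrl libraries. All siY14 libraries lay below both siCtrl libraries, and the log2 change was -0.24 (SE 0.07, adjusted p = 0.0314; 0.449 in the authors' deposited table). That call was lost without siCtrl library a or b or siY14 library b or d, with limma-voom adjusted p of 0.0622 to 0.225.

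HIST1H2BK had 1219, 1475, 1235 and 1520 in the siY14 libraries and 1283 and 1260 in the siCtrl libraries. The groups overlapped, and the ratio was 1.07-fold (adjusted p = 0.909 in the authors' deposited table). HIST2H2BE had 84.0, 114, 77.0 and 116 in the siY14 libraries and 85.1 and 86.7 in the siCtrl libraries (1.14-fold, adjusted p = 0.832 in the authors' deposited table). HIST1H3H had 23.2, 58.7, 30.1 and 57.9 in the siY14 libraries and 24.2 and 15.3 in the siCtrl libraries (2.15-fold, adjusted p = 0.374 in the authors' deposited table). In all 3 rows libraries b and d stood above a and c. Of the 24 canonical rows, HIST1H4H, HIST1H2AM and HIST1H2BN had every siY14 library above both siCtrl libraries, where 29.8% of recovered genes did.

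That split ran wider than the histone genes. Over 6337 genes with reads recovered and a mean of 50 or more, the deviations of siY14 libraries a and c from their arm mean correlated at 0.83, and those of b and d at 0.83 (across genes, which are not independent replicates). In 13 of 24 canonical rows both b and d exceeded both a and c, and in 3 both lay below, against 45.5% and 33.03% of recovered genes. The labels give 2 libraries to each Y14 siRNA, but recovered libraries carry no names, so which siRNA they held was not tested. With every library, limma-voom gave HIST1H2BN an adjusted p of 0.0613. Leaving out siY14 library a gave it a log2 change of 1.34 (limma-voom adjusted p = 0.0423), and leaving out c gave 1.35 (adjusted p = 0.0454). In those fits 17.3% and 12.8% of recovered genes were called higher. Leaving out library b gave 1.12 (limma-voom adjusted p = 0.0995), and leaving out d gave 1.03 (adjusted p = 0.0737). Without siCtrl library a or b the log2 change was 1.23 or 1.20.

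Of 9 variant rows past the mean of 10 in the siY14 comparison, the authors' deposited table called H2AFX higher and H3F3C lower, against 4.99% and 7.01% of all genes. H2AFX averaged 4049 in siY14 cells and 2744 in siCtrl cells there (1.48-fold, adjusted p = 0.0243). H3F3C, an intronless H3.3-related gene, had 593, 638, 625 and 638 in the siY14 libraries, against 913 and 937 in the siCtrl libraries. The groups were well apart and each was tight, with a log2 change of -0.57 by limma-voom (SE 0.08, adjusted p = 0.00293; 0.0253 in the authors' deposited table). Without siCtrl library a the limma-voom adjusted p was 0.0803. It shares 21.8% of its 50-base windows with other genes, most of all H3F3B, so its reads are uncertain as to copy.

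The other variants did not pass the authors' threshold. H1FX averaged 2769 in siY14 cells and 1496 in siCtrl cells in the authors' deposited table (log2 ratio 0.89, adjusted p = 0.210). H2AFZ had a log2 ratio of -0.21, H2AFV -0.34, H1F0 -0.18, H2AFY 0.04 and H3F3B 0.12. H2AFY2 had 1159, 1057, 1149 and 1022 in the siY14 libraries, against 1331 and 1327 in the siCtrl libraries. These groups did not overlap either, where 29.3% of recovered genes lay wholly lower; limma-voom gave a log2 change of -0.28 (SE 0.07, adjusted p = 0.0302), and the authors' deposited table an adjusted p of 0.372. The limma-voom call was lost without siCtrl library a or b or siY14 library b or d (adjusted p of 0.0593 to 0.257).

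**Figure D3:**
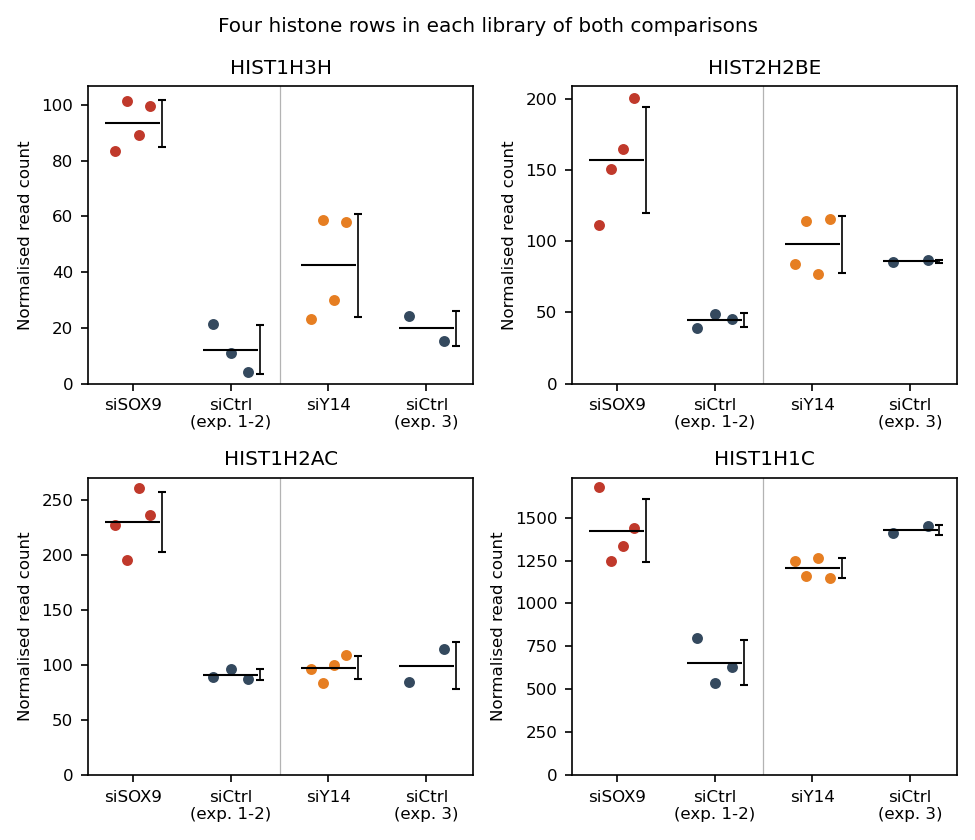
Normalised read count of HIST1H3H, HIST2H2BE, HIST1H2AC and HIST1H1C in each recovered library (points), with the group mean (line) and SD (bar); siSOX9 (n = 4) stands left of its siCtrl (n = 3), and siY14 (n = 4) left of its siCtrl (n = 2), and the comparisons were normalised separately. The siSOX9 points clear the siCtrl points in all 4 panels, and the siY14 points do so in none but HIST1H1C, where they lie below.

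The difference between the knockdown changes was tested in a joint limma-voom model, since the comparisons have separate siCtrl libraries. Of 20 canonical rows tested and past the mean of 10 in both tables, 6 had a larger change after SOX9 knockdown than after Y14 knockdown and 0 a smaller one, against 12.1% and 11.2% of 6806 genes. The 6 were HIST1H1C (difference 1.35 on the log2 scale, SE 0.19, adjusted p = 2.24e-04), HIST1H2AC (1.33), HIST2H2BE (1.55), HIST1H2BJ (1.45), HIST2H2BF (1.32) and HIST1H1E (1.196). HIST1H3H differed by 1.81 with an SE of 0.66 and an adjusted p of 0.0624. HIST1H2BN, at -0.93 (SE 0.45, adjusted p = 0.150), lay on the other side. Over the 21 canonical rows past the mean of 10 in both tables, the median log2 ratio was 1.27 for siSOX9 and 0.22 for siY14. Experiment, depth and siCtrl set differ between the comparisons and cannot be told apart from the siRNA in this difference.

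**Figure D4:**
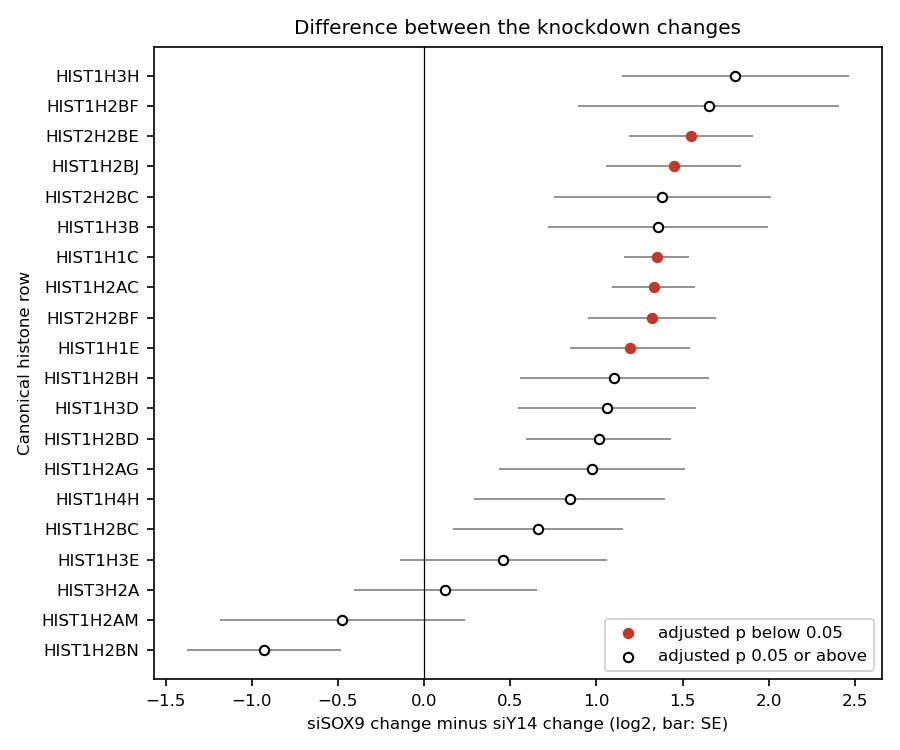
Difference between the siSOX9 change and the siY14 change (log2, siSOX9 minus siY14) for 20 canonical rows in the joint limma-voom model; bars are the SE, and filled points have an adjusted p below 0.05. The 6 filled points lie between 1.196 and 1.55, and HIST1H2BN and HIST1H2AM are the rows below 0.

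The counts for genes that make or end histone mRNA stand beside the 1.58% of all genes called higher and 3.11% called lower in siSOX9 cells in the authors' deposited table. Of 25 genes of histone 3' end processing read in the siSOX9 table, 0 were called higher and 1 lower in the authors' deposited table, with a median log2 ratio of 0.01. That gene was NCBP2, the small subunit of the cap-binding complex (log2 ratio -0.68, adjusted p = 0.00837). SLBP averaged 9519 in siSOX9 cells and 8920 in siCtrl cells in the authors' deposited table, and NPAT, the coactivator of histone gene transcription, had a log2 ratio of -0.08. LSM11, a U7 snRNP protein, had -0.03. Among 33 chaperone and histone locus genes, 0 were called higher and 1 lower: HIRA, the H3.3 chaperone, at -0.53 (adjusted p = 0.0296). Of 13 S phase genes, 1 was called higher in the authors' deposited table, RRM2, a ribonucleotide reductase subunit (log2 ratio 0.68, adjusted p = 0.00933), and the list median was -0.01. Limma-voom could test 8 of the processing genes, of which 1 was called higher (CSTF2T) and 2 lower (NCBP2 and ZNF473), and 12 of the chaperone and locus genes, of which 4 were called higher (HINFP, CCNE1, UBN1 and ATRX) and 2 lower (HIRA and NFYC), against 10.2% and 13.4% of recovered genes. The part of cell cycle position in the histone result was not tested.

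In the siY14 comparison, the authors' deposited table called 3 of the 25 processing genes higher and 2 lower, against 4.99% and 7.01% of all genes. UPF1, which acts in histone mRNA decay, had a log2 ratio of 0.78, ZNF473, a U7-associated factor, 0.95 and CASP8AP2, a partner of the U7 snRNP, 0.52. NCBP1, the large cap-binding subunit, had -0.68, and PAPD5, a noncanonical poly(A) polymerase, -0.63. Among the chaperone and locus genes 2 rose, E2F1 (0.93) and UBN1 (0.72), and 3 fell, NFYB (-0.53), CHAF1B (-0.50) and ANP32E (-0.60). CDT1, a replication licensing factor, had a log2 ratio of 1.22 in the authors' deposited table (adjusted p = 0.0111) and was the single S phase gene called.

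Depth differed within the siSOX9 comparison, where the deepest library held 185 M reads in the siSOX9 arm and 178 M in the siCtrl arm, against 24.9 to 41.8 M in the others. The deviations of these 2 deepest libraries from their arm means correlated at 0.82 over 7217 genes. Between these 2 libraries all 21 canonical rows were higher in siSOX9, with a median log2 ratio of 0.84, and between the remaining libraries 20 of 21 were, with a median of 1.27. Without both deepest libraries limma-voom called 16 canonical rows higher and 0 lower, against 13.4% and 17.7% of genes. Which experiment each library came from could not be told apart from the files. In bulk RNA, more cells carrying a transcript and more RNA per cell cannot be told apart.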

How the data were processed

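RNA-seq libraries of 13 samples were made by the submitters from poly(A)-selected RNA with a stranded kit, per the labels' protocols. The submitters' processing notes name the aligners TopHat2, HISAT2 and Bowtie, the tools HTSeq, SAMtools and DESeq, and the build hg19, with no version or setting. The authors deposited 2 tables with a mean signal per arm (read counts over size factors), per the file headers, and both were used. The deposited tables also hold a fold ratio of both arms, the log2 of that ratio, and a p-value with its adjusted p-value, all computed by the authors. They have no column for any 1 library, so 0 per-sample columns went unused.

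The members and gene lists were chosen with earlier results of these data known. Named genes were the 3 markers, rows called in either table, the 10 canonical and 10 variant rows with the highest means, the extremes, and members of the lists. The plan allowed for counts; the main values are instead the authors' ratios and adjusted p (threshold 0.05), over rows with a mean of at least 10. Of the lists, ARS2 was not a listed symbol.

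Arm means carry 15 digits, and whole reads per library were recovered from them by a lattice search, for 63.5% of the siSOX9 table's 13649 genes past the mean of 10 and 58.4% of the siY14 table's 13444. Tested on simulated data, 343 to 600 of 600 genes per arm were recovered, with 0 wrong, and 0 to 4 means shifted off the lattice were accepted per arm. Rows of high mean failed most often. These reads were tested with limma-voom (limma 3.58.1, R 4.3.3) and Benjamini-Hochberg adjustment; in simulated data for the siSOX9 comparison (8671 genes) it called 99 of 105 genes changed 2-fold, with 18 false calls among 212, and for the siY14 comparison (7856 genes) 97 of 104, with 8 among 201. The simulated libraries were drawn independently, with the same dispersion for every gene. They lacked the deviations that the real libraries shared, so these rates may not hold for the real libraries. Stem-loops, head-to-head pairs and shared windows came from GENCODE release 29, and promoters from RefSeq, with Python 3.11.15.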

Additional observations from a re-analysis of the deposited data

Results flagged for a closer look

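In 6 of 20 canonical rows the change after SOX9 knockdown exceeded the change after Y14 knockdown in the joint limma-voom test, against 12.1% of 6806 genes. The differences (siSOX9 minus siY14, log2) and adjusted p-values were 1.35 and 2.24e-04 for HIST1H1C, 1.33 and 0.00154 for HIST1H2AC, 1.55 and 0.00705 for HIST2H2BE, 1.45 and 0.0165 for HIST1H2BJ, 1.32 and 0.0196 for HIST2H2BF, and 1.196 and 0.0237 for HIST1H1E. In each of the 6, all 4 siSOX9 libraries were above all 3 siCtrl libraries. The same held in 16 of the 21 canonical rows with recovered reads and in 14.3% of recovered genes. The test used these same libraries, so the separation is not further support. Experiment, depth and siCtrl set cannot be told apart from the siRNA in these differences.

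Single libraries stood far from the rest of their arm in 2 of 50 arms of 4 checked, where chance gives about 1 in 20. HIST1H2BF had 13.4 normalised counts in siSOX9 library a, the lowest, against 35.2 in the highest. HIST1H3E had 31.0 in siY14 library b, the highest, against 16.7 in the lowest.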

How the results depend on the processing

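By the authors' p-values, the 7 canonical rows called in siSOX9 cells were 7 with adjustment over genes with a mean of at least 10 or with no filter, and 6 with a mean of at least 50. Limma-voom on recovered reads called 14, 16 without the deepest library of both arms and 17 with a term for those libraries (both chosen after seeing the data), and 7 to 16 leaving out 1 library at a time. Over all 8671 genes the same fits called 884, 1162, 2159 and 408 to 1126 higher. For variant rows in siSOX9 cells, 0 in the authors' table, limma-voom called 1 of 3 testable (H2AFY2), also 1 without both deepest libraries or with the term, and 1 without any 1 library. In siY14 cells limma-voom called 1 canonical row against 0, with 0 to 2 leaving out 1 library, and 0 to 2 variant rows against 2. The canonical median log2 ratio in siSOX9 cells was 0.98 to 1.27 over the pseudocounts, filters and centring tried, and 1.10 to 1.34 leaving out 1 library; in siY14 cells it was 0.03 to 0.32, and 0.15 to 0.28. Leaving out siCtrl library a of experiment 3 moved H3F3C to an adjusted p of 0.0803. Leaving out 1 library was not run for variant medians, since 3 of 10 and 2 of 9 rows had recovered reads. The causes were not tested. No paired analysis was possible because the deposited columns carry no replicate numbers.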

Other observations

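The siCtrl means of some rows, with or without shared sequence, differed widely between the tables, which were normalised separately and hold different siCtrl libraries. In the authors' deposited tables, HIST2H2BC had a siCtrl mean of 173 beside siSOX9 and 13.9 beside siY14, and 9.39% of its 50-base windows occur in another gene. H3F3C had siCtrl means of 53.9 beside siSOX9 and 925 beside siY14 in the authors' deposited tables, and shares 21.8%. HIST1H2BK, with 74.1% shared, had 1193 and 1272 there. Rows with little or no shared sequence differed as well. HIST1H4E, with 0% shared, had 7.76 beside siSOX9 and 36.6 beside siY14, and H2AFX, with 0.32%, had 9112 and 2744. The part of shared sequence was not tested. H3F3A, the other H3.3 gene, was listed at 0 in both tables, and 12.9% of its windows occur in another gene.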
